A study of Mus musculus with 39 samples.

Results

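The nucleus accumbens (NAc) and the basolateral amygdala (BLA) were compared within 9 Lmo4gt/+ mice, in which a gene trap interrupts 1 allele of Lmo4. The libraries were chosen by their titles: 18 of the 39 in the series, 1 NAc and 1 BLA library from each of the mice numbered 122, 127, 128, 138, 147, 149, 150, 157 and 159. Both groups were heterozygous for the trap, of strain C57BL/6J and 8 to 12 weeks old, with no treatment named in the labels. No wild-type library was used, so the values describe how the regions differ in mutant mice and do not show what the allele did. The study compared mutant with wild-type mice to look for transcripts that depend on LMO4. Each library holds polyA RNA of a micropunch from 300 µm frozen sections, and the labels give neither sex nor where in the gene the trap lies. The labels of NAc library 122 conflict, since its title names a mutant and its genotype field wild type, and it was grouped by title.

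The NAc is the ventral part of the striatum. Its main cells are GABAergic medium spiny neurons, of which direct pathway cells carry the dopamine D1 receptor and indirect pathway cells the D2 receptor, with a small number of large cholinergic interneurons among them. The BLA is a pallial structure whose main cells are glutamatergic projection neurons, and it sends dense input to the NAc. A punch is bulk tissue: fewer cells of a type and less RNA per cell cannot be told apart in these values. LMO4 is a LIM-only protein without a DNA-binding domain, which joins transcription factor complexes through partners such as LDB1.

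Counts assigned to genes ran from 25424579 to 51021670 in the 9 BLA libraries and from 21255934 to 41326396 in the 9 NAc libraries. Reads assigned to no gene made up 25.4% to 29.4% in the BLA and 30.6% to 38.1% in the NAc, so this share moved with region, and its part in the results was not tested. Several libraries stood apart. Slc17a7, the vesicular glutamate transporter of pallial neurons, stood at 525 CPM (library-scaled counts, with TMM factors) in NAc library 122, against 2.25 to 49.96 CPM in the other 8 NAc libraries. The 16 markers of glutamatergic projection neurons summed to 2514 CPM there and to 1193 to 1821 CPM in the other 8. In the BLA, the striatal receptor gene Drd2 stood at 16.6, 31.3 and 27.3 CPM in libraries 128, 149 and 159 and at 0.9 to 5.54 CPM in the other 6. The 20 markers shared by medium spiny neurons summed to 2415, 2806 and 2937 CPM in those libraries, against 1802 to 1986 CPM in the other 6. BLA library 127 held the choroid plexus transcript Ttr at 519 CPM, where the other 8 BLA libraries held 0.493 to 3.05. Values without these mice are also given below for genes and lists whose levels were high in those libraries, though not for each of them. NAc library 149 stood apart as well, with the fewest genes detected (20238, against 21584 to 23670 in the other libraries). It held the highest NAc value of several genes given below, such as Adcy5 and Foxp1. The fit without mouse 149 called 9379 genes between the regions at an adjusted p under 0.05, against 8966 with all mice. Why this library stood apart was not tested.

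Lmo4 itself was lower in the NAc than in the BLA of these mice. The gene (ENSMUSG00000028266.17) lies at chr3:143851494-143868184 on the minus strand of NCBIM37. In the BLA, libraries 122, 127, 128, 138, 147, 149, 150, 157 and 159 held 68.3, 87.9, 109, 93.2, 74.6, 104, 94.2, 93.7 and 93.1 CPM, and in the NAc the same mice gave 69, 46.2, 45.6, 47.3, 47.8, 51.9, 51.9, 56.5 and 66.4 CPM. The NAc value was lower in 8 of 9 mice and level with the BLA in mouse 122, whose 2 libraries were the lowest of the BLA and the highest of the NAc. The log2 fold change, NAc minus BLA and fitted with mouse as a block, was -0.77 ± 0.10 (standard error; edgeR quasi-likelihood test, adjusted p = 2.02e-05), and it was -0.86 without mouse 122. The BLA of these mutants thus held about 1.7 times the Lmo4 signal of the NAc, and the counts do not separate reads of the trapped and the intact allele.

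Both punches carried the markers of their labelled region. Slc17a7 (chr7:52419291-52431508, plus strand) measured 1691 to 2004 CPM in the BLA (median 1803) and 2.25 to 525 CPM in the NAc (median 7.59). The groups did not overlap, but NAc library 122 lay far above the rest. Its log2 fold change was -7.43 ± 1.02 (adjusted p = 0.000265), -7.88 without mouse 122 and -4.70 in the fit without the mouse block. Nr2f2 (chr7:77496832-77511621, minus strand), which encodes the nuclear receptor COUP-TFII, measured 203 to 264 CPM in the BLA (median 243) and 3.24 to 9.93 CPM in the NAc (median 6.77). Its log2 fold change was -5.22 ± 0.11 (adjusted p = 2.87e-13), and the ratios of the 9 mice lay between -4.72 and -5.97, so NAc library 122, high in Slc17a7, was not high in this BLA transcript. Drd2 (chr9:49148732-49216282, plus strand), the dopamine D2 receptor, measured 0.90 to 31.3 CPM in the BLA (median 2.95) and 117 to 222 CPM in the NAc (median 167), a log2 fold change of 4.87 ± 0.62 (adjusted p = 0.000168). Adora2a (chr10:74779688-74797533, plus strand), the adenosine receptor of indirect pathway neurons, measured 1.43 to 62.7 CPM in the BLA (median 2.99) and 134 to 249 CPM in the NAc (median 190.0), a log2 fold change of 4.70 ± 0.72 (adjusted p = 0.00053). For both receptors the high BLA values belonged to mice 128, 149 and 159. Without mice 122, 127, 128, 149 and 159 the log2 fold changes were 5.88 for Drd2 and 5.87 for Adora2a.

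**Figure D1:**
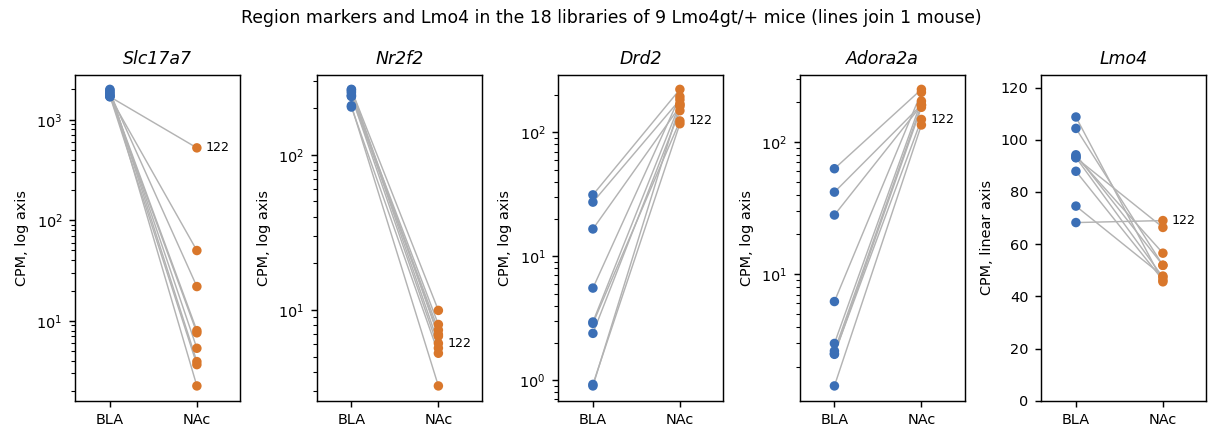
Levels of the 4 region markers (CPM, log axes) and of Lmo4 (CPM, linear axis) in the 9 BLA and 9 NAc libraries, with 1 point per library and 1 line per mouse; the NAc library of mouse 122 is labelled. Each marker separated the regions in all 9 mice, with NAc library 122 at 525 CPM of Slc17a7, while Lmo4 of mouse 122 was level between regions.

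Across the transcriptome, 8966 of 17026 genes tested differed between the regions at an adjusted p under 0.05 (52.7%), 4463 higher in the NAc (26.2%) and 4503 higher in the BLA (26.4%). At least 2-fold differences, with the same adjusted p, were found for 2562 genes, 1261 toward the NAc (7.41%) and 1301 toward the BLA (7.64%). All 9 NAc values lay above all 9 BLA values for 1538 genes (9.03%), and all below for 1862 (10.9%). The median log2 fold change over all genes was 0.01. Counts of list members below are read against these shares. The lists were written with earlier results of these data known, so those counts are descriptions. Unless it is said not to have been called, each tested gene named had an adjusted p under 0.05 in the same edgeR test. For each gene given by its range, other than Lmo4, the 9 NAc and 9 BLA values did not overlap. The 9 mice gave like signs: of the genes called at least 2-fold from 8 mice, 90.9% (mouse 122) to 98.6% (mouse 150) had the same sign in the mouse left out. Sizes were less alike. Over genes called toward the BLA, the median log2 ratio of mouse 122 was -1.09, against -1.70 for the mean of the other 8. Toward the NAc these values were 1.24 and 1.47. When other mice were left out, their medians toward the BLA ran from -1.47 (mouse 127) to -1.95 (mouse 149).

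**Figure D2:**
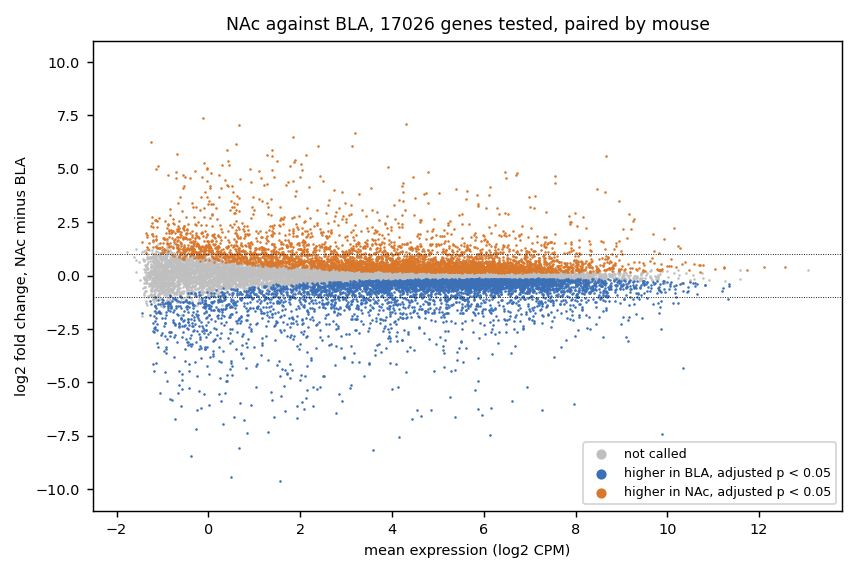
Log2 fold change (NAc minus BLA) against mean expression (log2 CPM) for the 17026 genes tested, with genes higher in the NAc in orange, genes higher in the BLA in blue and genes not called in grey; dotted lines mark a 2-fold difference. The 1261 NAc-high and 1301 BLA-high genes beyond those lines lie over most of the range of expression.

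Among genes of at least 5 CPM in the NAc and higher there in all 9 mice, the 12 with the largest fold changes included Serpina9, Calcr, Isl1, Chat, Clec12a, Drd3, Scn4b, Fgf3, Olfr1393, Dsg1c and Cd4. Serpina9, a serine protease inhibitor, measured 0 to 0.913 CPM in the BLA (median 0.249) and 27.2 to 48.3 CPM in the NAc (median 39.7), with a log2 fold change of 7.08 ± 0.38 (adjusted p = 4.21e-08). Summed over libraries it had 10748 reads in the NAc and 90 in the BLA, a ratio of 137 (95% counting interval 112 to 171). Calcr, the calcitonin receptor, measured 0 to 0.515 CPM in the BLA (median 0.141) and 10.7 to 21.8 CPM in the NAc (median 18.2), a log2 fold change of 6.67 ± 0.31. Both genes were near 0 in every BLA library, with Calcr ratios between 5.11 and 8.37. Drd3, the dopamine D3 receptor that marks the ventral striatum, measured 0 to 0.597 CPM in the BLA (median 0.0411) and 5.46 to 12.7 CPM in the NAc (median 8.44), a log2 fold change of 5.64 ± 0.56. Scn4b, the sodium channel beta subunit of medium spiny neurons, measured 5.34 to 76 CPM in the BLA (median 8.44) and 417 to 1183 CPM in the NAc (median 828), a log2 fold change of 5.62 ± 0.54. Cd4, best known as the co-receptor of helper T cells, measured 0 to 4.36 CPM in the BLA (median 0.665) and 17.5 to 48.9 CPM in the NAc (median 25.8), a log2 fold change of 5.09 ± 0.67; its ratio ran from 2.55 to 8.70 over the mice. Fgf3, a fibroblast growth factor, and Clec12a, a C-type lectin receptor, were higher by 5.59 ± 0.66 and 5.91 ± 0.49. The desmosomal cadherin Dsg1c and the olfactory receptor gene Olfr1393 were higher by 5.12 ± 0.38 and 5.42 ± 0.54. How the counting treated strand is not given in the sources used here, so reads from overlapping transcripts cannot be told apart at such genes. Leaving out 1 mouse moved some of these fold changes by more than 1.5 times: without mouse 149, Chat stood at 6.73, and without mouse 159, Fgf3 stood at 6.42. For Scn4b the BLA libraries 128, 149 and 159 held 44.8, 76 and 75.7 CPM, against 5.34 to 13.8 CPM in the other 6, and Cd4 was highest in the same 3. Without mice 122, 127, 128, 149 and 159 the log2 fold changes were 6.64 for Scn4b, 6.25 for Cd4, 6.70 for Drd3, 7.73 for Serpina9 and 5.94 for Calcr, the last of these smaller than with all mice.

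The 12 genes with the largest fold changes toward the BLA under the same rule were Slc9a4, Pappa2, Slc30a3, Slc17a7, Rspo2, Tbata, Neurod2, Neurod6, Bhlhe22, Rtn4rl2, Prdm8 and Nov. Slc9a4, a sodium-hydrogen exchanger, had 1730 reads over the 9 BLA libraries and 1 read over the 9 NAc libraries, a ratio of 1506 (95% counting interval 270 to 59512). That single read leaves the size of the difference poorly fixed, and the interval covers counting error only. Pappa2, a protease of insulin-like growth factor binding proteins, measured 25.8 to 40.2 CPM in the BLA (median 34.9) and 0 to 0.787 CPM in the NAc (median 0.0927), a log2 fold change of -7.54 ± 0.47. Slc30a3, which loads zinc into glutamatergic vesicles, measured 93.4 to 175 CPM in the BLA (median 142) and 0.0392 to 17.1 CPM in the NAc (median 0.348), a log2 fold change of -7.46 ± 0.75. Rspo2, a secreted enhancer of Wnt signalling and a marker of a class of BLA projection neurons, measured 23.4 to 59.3 CPM in the BLA (median 41.1) and 0 to 8.49 CPM in the NAc (median 0.209), a log2 fold change of -6.72 ± 0.85 (adjusted p = 0.000151). All 3 were at 1 CPM or below in the median NAc library. The Nogo receptor relative Rtn4rl2 and the matricellular protein gene Nov (CCN3) had log2 fold changes of -6.31 ± 0.73 and -6.27 ± 0.32, and Tbata of -6.64 ± 0.58. The transcriptional repressor genes Bhlhe22 and Prdm8, whose proteins act in a shared complex, stood at -6.53 ± 0.18 and -6.29 ± 0.57. Mouse 122 gave smaller differences for most of these genes: the log2 ratio of Neurod6, for instance, was -0.44 in that mouse and between -9.80 and -5.16 in the other 8. For Bhlhe22 its ratio was -6.02, inside the range of the other mice. For Slc9a4 its ratio was -5.87, above that range, but NAc library 122 held 0 reads of this gene. That ratio therefore rests on the prior count and on the 87 reads of BLA library 122, the fewest of the 9 BLA libraries. Without mouse 122 the log2 fold changes were -8.18 for Pappa2, -8.40 for Slc30a3, -7.98 for Rspo2, -7.95 for Tbata, -7.52 for Neurod2, -7.79 for Neurod6, -7.13 for Rtn4rl2 and -6.99 for Prdm8, so that each fold was more than 1.5 times larger. Without mouse 150, which holds the single NAc read, Slc9a4 stood at -10.46.

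**Figure D3:**
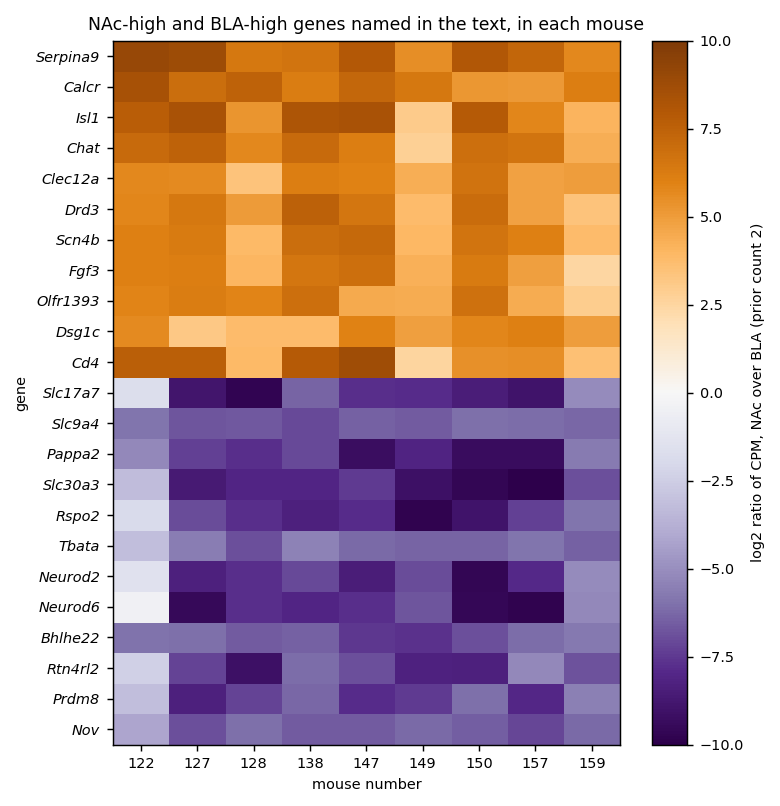
Log2 ratio of NAc to BLA (colour, CPM with a prior count of 2) for the NAc-high and BLA-high genes named above (rows) in each of the 9 mice (columns). Signs are the same in all mice, with pale BLA-high cells in mouse 122 and paler NAc-high cells in mice 149 and 159.

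The upstream bases of a strongly NAc-high peptide gene, a NAc-high transcription factor gene and a BLA-high transcription factor gene show what short motifs stand at genes that part the regions this far. Tac1 encodes substance P, Isl1 a LIM-homeodomain factor of striatal and cholinergic neurons, and Neurod2 a basic helix-loop-helix factor of pallial neurons. Each run is 250 bases before the start site, read 5′ to 3′ on the gene's strand in RefSeq (GRCm38.p6). Capitals mark the CRE half-site TGACG, to which CREB-type factors bind, in either orientation (CGTCA is its reverse complement). In the Tac1 and Neurod2 runs they also mark the E-box CAGATG, a motif of NEUROD factors, searched there on both strands.
Tac1: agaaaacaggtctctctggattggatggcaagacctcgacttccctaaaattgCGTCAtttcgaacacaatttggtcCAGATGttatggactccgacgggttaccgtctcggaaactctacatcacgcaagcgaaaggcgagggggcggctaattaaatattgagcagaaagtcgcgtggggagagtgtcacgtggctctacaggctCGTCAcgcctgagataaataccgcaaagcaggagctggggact
Isl1: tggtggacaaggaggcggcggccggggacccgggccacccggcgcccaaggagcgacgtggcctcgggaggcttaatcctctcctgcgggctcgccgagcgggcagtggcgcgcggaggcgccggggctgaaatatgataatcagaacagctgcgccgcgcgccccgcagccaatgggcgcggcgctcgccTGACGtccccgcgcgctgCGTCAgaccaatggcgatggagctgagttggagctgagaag
Neurod2: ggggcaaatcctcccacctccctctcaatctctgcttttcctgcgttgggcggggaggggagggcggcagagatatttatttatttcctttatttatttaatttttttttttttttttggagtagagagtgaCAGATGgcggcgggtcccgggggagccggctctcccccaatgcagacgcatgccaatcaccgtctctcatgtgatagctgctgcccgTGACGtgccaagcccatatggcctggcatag
The Tac1 run (chr6:7554811-7555060, plus strand) holds CGTCA at -197 and -43 and CAGATG at -173. The Isl1 run (chr13:116309689-116309938, minus strand) holds TGACG at -59 and CGTCA at -41. The Neurod2 run (chr11:98329646-98329895, minus strand) holds CAGATG at -118 and TGACG at -31. Of the 32851 upstream windows of the same length, 17.8% hold TGACG and 14.4% hold CAGATG on either strand, so a match is common, and it is a description of the letters and not a binding site.

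All 20 tested genes listed as shared by medium spiny neurons were higher in the NAc, 18 of them at least 2-fold. Their median log2 fold change was 2.77. The list was written with earlier results of these data known, so the count is a description. Of all genes tested, 26.2% were higher in the NAc and 7.41% at least 2-fold. Beside Serpina9, Cd4 and Scn4b, these included the core of striatal cyclic AMP signalling. Adcy5, the main striatal adenylyl cyclase, measured 312 to 506 CPM in the BLA (median 342) and 1072 to 3531 CPM in the NAc (median 1778), a log2 fold change of 2.24 ± 0.13. Its partners Gnal and Gng7, subunits of the G protein that couples dopamine and adenosine receptors to the cyclase, differed by 2.18 ± 0.09 and 2.88 ± 0.08. Pde1b, a calmodulin-dependent phosphodiesterase, differed by 2.19 ± 0.09, and Rarb, a retinoic acid receptor, by 3.34 ± 0.12. Outside the naming rule, and singled out after its values were seen, Ppp1r1b (DARPP-32, the dopamine-regulated phosphatase inhibitor) differed by 3.52 ± 0.20. In the BLA these 20 genes summed to 1802 to 2937 CPM, against 7780.3 to 15593 CPM in the NAc.

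Of the 9 direct pathway genes tested, 7 were higher in the NAc and 1 in the BLA (6 and 1 at least 2-fold; median 3.15). Tac1, whose upstream bases are shown above, measured 4.67 to 14.9 CPM in the BLA (median 7.58) and 56.5 to 138 CPM in the NAc (median 103), with a log2 fold change of 3.76 ± 0.25 (adjusted p = 4.59e-07). Pdyn, the dynorphin precursor, measured 2.8 to 30.8 CPM in the BLA (median 4.47) and 156 to 242 CPM in the NAc (median 199), a log2 fold change of 4.82 ± 0.44. Drd1a, the D1 receptor gene (Drd1), differed by 3.15 ± 0.12, Ebf1 by 2.26 ± 0.11, and Slc35d3, a transporter-like gene known to affect D1 receptor trafficking, by 3.92 ± 0.23. The member that went the other way was Eya1, a transcriptional co-factor and phosphatase (-1.05 ± 0.11). Of 8 indirect pathway genes, 7 were higher in the NAc, 6 at least 2-fold, with a median of 4.07. Besides Drd2 and Adora2a, the receptor gene Gpr6 measured 0.493 to 6.1 CPM in the BLA (median 1.2) and 37.5 to 65.3 CPM in the NAc (median 50.4), a log2 fold change of 4.86 ± 0.38, and the zinc-finger factor gene Sp9 differed by 1.47 ± 0.14. The remaining member, the kainate receptor subunit Grik3, was not called (-0.22 ± 0.10, 95% interval -0.43 to -0.00). In the BLA the summed level of each of the 2 lists was highest in libraries 128, 149 and 159, and Pdyn stood at 23.6, 30.8 and 10.9 CPM there. Without mice 122, 127, 128, 149 and 159 the log2 fold changes were 5.54 for Pdyn and 5.51 for Gpr6, and the medians 3.50 for the direct and 5.07 for the indirect pathway list. Grik3 was called without mouse 122 (-0.31).

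Dopamine signalling genes were higher in the NAc in 14 of 17 cases (13 at least 2-fold; median 2.24), and 1 was higher in the BLA. The 3 receptors with the largest differences were Drd3, Drd2 and Drd1a, given above. Th, the rate-limiting enzyme of dopamine synthesis, was singled out after its values were seen: it measured 0 to 0.808 CPM in the BLA (median 0.166) and 4.03 to 10.1 CPM in the NAc (median 8.07), a log2 fold change of 4.95 ± 0.57. Slc6a3, the dopamine transporter and a defining marker of midbrain dopamine neurons, was too low to test, with 35 reads over the BLA libraries and 62 over the NAc libraries. Maob, a monoamine-degrading enzyme, was slightly lower in the NAc (-0.28 ± 0.08; not called without mice 122, 127, 128, 149 and 159), and the D1 receptor interacting protein gene Caly was not called (0.12 ± 0.09) unless mouse 149 was left out (0.20). Without mice 122, 127, 128, 149 and 159 the median of the list was 2.52.

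Cholinergic neuron genes were higher in the NAc in 6 of 7 cases, all 6 at least 2-fold, with a median of 3.49. Chat, which makes acetylcholine, measured 0 to 0.738 CPM in the BLA (median 0.0554) and 5.52 to 14.8 CPM in the NAc (median 10.1), a log2 fold change of 6.06 ± 0.60 (adjusted p = 6.59e-06). Slc5a7, the choline transporter, measured 0.822 to 3.55 CPM in the BLA (median 1.51) and 27.5 to 42.9 CPM in the NAc (median 35.2), a log2 fold change of 4.35 ± 0.19. Isl1, whose upstream bases are shown above, is used in cholinergic and direct pathway cells alike and measured 0 to 1.12 CPM in the BLA (median 0.0198) and 9.66 to 20.2 CPM in the NAc (median 18.4), a log2 fold change of 6.07 ± 0.71. The ratios of Isl1 and Chat were lowest in mouse 149, at 3.03 and 2.80. Its BLA library, high in striatal markers, held the highest BLA values of both genes (1.12 and 0.738 CPM). Its NAc library held the lowest NAc values of both (9.66 and 5.52 CPM). The part of either library in these ratios was not tested. Without mouse 149, Chat stood at 6.73. Without mice 122, 127, 128, 149 and 159 the median of the list was 4.68. The tachykinin receptor Tacr1 and the peptidase-like Ecel1 were higher by smaller amounts (1.33 ± 0.08 and 1.48 ± 0.11), and Zic4 was not called (0.76 ± 0.35) unless mouse 138 or mouse 149 was left out (0.97 and 0.90). Chosen after its reads were seen, the developmental factor gene Gbx2 was too low to test, with 257 reads in the NAc against 4 in the BLA, a ratio of 73.8 (95% counting interval 28.5 to 273).

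Markers of glutamatergic projection neurons were lower in the NAc in 14 of 16 cases, all 14 at least 2-fold, with a median log2 fold change of -5.33. Of all genes tested, 26.4% were lower in the NAc and 7.64% at least 2-fold. Neurod1, Neurod2 and Neurod6, related basic helix-loop-helix factors of pallial neurons, differed by -6.11 ± 0.56, -6.60 ± 0.89 and -6.59 ± 1.08, and by -6.99, -7.52 and -7.79 without mouse 122. Neurod2, whose upstream bases are shown above, measured 63.7 to 89 CPM in the BLA (median 79.1) and 0.0512 to 31.6 CPM in the NAc (median 0.278). Nptx1, a pentraxin that gathers AMPA receptors, differed by -3.33 ± 0.30, and Sv2b, a synaptic vesicle protein, by -2.07 ± 0.12. The list has 2 exceptions: the scaffold gene Baiap2 was higher in the NAc (0.82 ± 0.07), and the pseudokinase gene Camkv was not called (0.14 ± 0.07) unless mouse 122 was left out (0.19). BLA principal neuron genes were lower in the NAc in 10 of 12 cases, all at least 2-fold, with a median of -5.23. Beside Rspo2 and Nr2f2, the growth factor gene Bdnf measured 22 to 39.5 CPM in the BLA (median 34.3) and 0.318 to 7.87 CPM in the NAc (median 0.628), a log2 fold change of -5.24 ± 0.50. The factor genes Etv1, Mef2c and Lmo3 differed less (-1.92 ± 0.08, -1.62 ± 0.14 and -1.33 ± 0.08), and the lowest NAc library still held 66, 120.0 and 124 CPM of them. Mouse 122 stood apart for Bdnf, with a log2 ratio of -1.85 against -6.59 to -5.00 in the other 8, and for Nptx1, at -1.02 against -4.05 to -3.05. Without it the fold changes were -5.79 and -3.58 on the log2 scale, and the list medians -6.01 for glutamatergic and -5.49 for BLA principal neurons. Cdh13, a cadherin with a lipid anchor, was not called (0.07 ± 0.13).

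Transcription factors of the 2 lineages differed in opposite directions. Of 24 subpallial and striatal factors, 18 were higher in the NAc and 4 in the BLA (14 and 2 at least 2-fold; median 1.56). Foxp1, a forkhead factor of medium spiny neurons, measured 40.8 to 103 CPM in the BLA (median 51.8) and 260.4 to 742 CPM in the NAc (median 379), a log2 fold change of 2.78 ± 0.11. Zfp503 encodes a transcriptional repressor that acts in the developing striatum. It measured 2.41 to 6.0 CPM in the BLA (median 4.73) and 24.7 to 39.6 CPM in the NAc (median 32.3), a log2 fold change of 2.83 ± 0.14. The 4 that were higher in the BLA include Ikzf2, an Ikaros family factor (-0.45 ± 0.13). Dlx1, an interneuron factor, was at -0.50 ± 0.15, with a call that ended in the fit without the mouse block (-0.41). Of 26 pallial and projection neuron factors, 21 were higher in the BLA and 3 in the NAc (19 and 2 at least 2-fold; median -2.0). Zfp238 (Zbtb18) encodes a transcriptional repressor that acts in pallial development. It measured 479 to 593 CPM in the BLA (median 533) and 66.5 to 159 CPM in the NAc (median 92.1), a log2 fold change of -2.50 ± 0.10. Members that went against the list included Zbtb20 (2.54 ± 0.16) and Cux1 (1.34 ± 0.07). Zbtb20 measured 132 to 211 CPM in the BLA (median 173) and 689 to 2084 CPM in the NAc (median 904), and its highest library was NAc 149.

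The LIM group, to which LMO4 belongs, split between the regions. Of 16 LIM-only, LIM-homeodomain and cofactor genes tested, 3 were higher in the NAc and 8 in the BLA (2 and 4 at least 2-fold; median -0.07). Lmo2, opposite to Lmo4, measured 8.26 to 12.3 CPM in the BLA (median 10) and 21.8 to 35 CPM in the NAc (median 28.3), a log2 fold change of 1.47 ± 0.08. Lmo3 was higher in the BLA and measured 332 to 455 CPM in the BLA (median 368) and 124 to 188 CPM in the NAc (median 155), a log2 fold change of -1.33 ± 0.08. Lmo1 was not called (0.03 ± 0.13, 95% interval -0.26 to 0.32), so the 4 LIM-only genes did not share a direction. The cofactor genes also moved in opposite directions: Ldb1 was slightly higher in the NAc (0.34 ± 0.05) and Ldb2 higher in the BLA, where the gene measured 72.5 to 97.8 CPM in the BLA (median 85.4) and 19.9 to 38 CPM in the NAc (median 25.9), a log2 fold change of -1.73 ± 0.08. Lhx2, a LIM-homeodomain factor of the pallium, was higher in the BLA (-1.56 ± 0.10), and Lhx6, a factor of interneurons from the medial ganglionic eminence, was not called (0.17 ± 0.11). Lhx1, noted after its reads were seen, had 79 reads in 6 NAc libraries and 0 in the BLA, at least 30.3-fold higher against a floor of 3 counts over the BLA group.

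**Figure D4:**
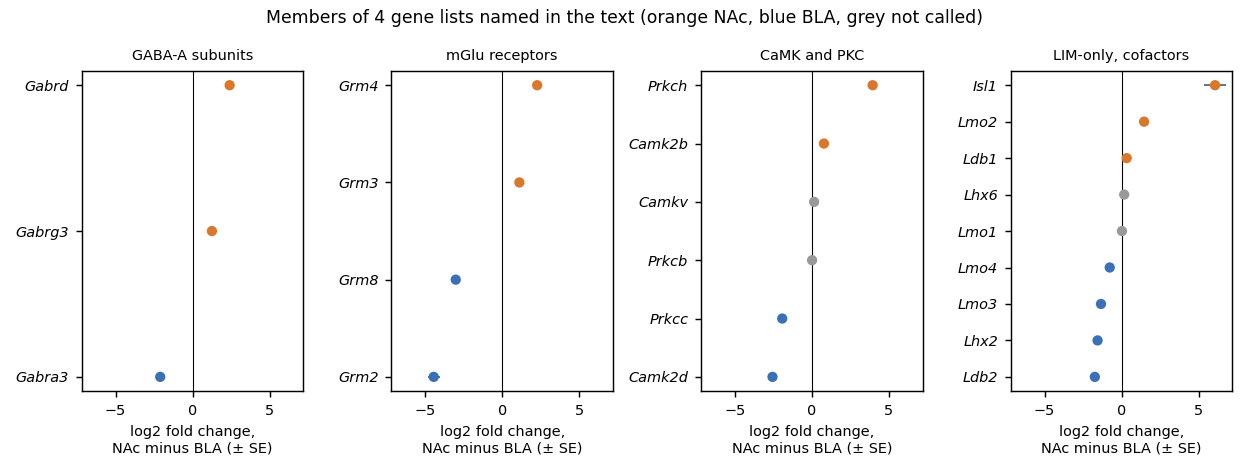
Log2 fold change (NAc minus BLA, with standard error) of the members named in the text from 4 lists: GABA-A receptor subunits, metabotropic glutamate receptors, calmodulin-dependent kinases with protein kinase C, and LIM proteins with their cofactors; orange is higher in the NAc, blue higher in the BLA and grey not called. Each list has members well below 0 and members well above it.

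Cell types near the punched regions were looked at through their own markers. Of 12 central amygdala and intercalated cell genes, 5 were higher in the NAc and 3 in the BLA (median 0.22). Cyp26b1, which degrades retinoic acid, measured 113 to 287 CPM in the BLA (median 188) and 0.999 to 7.23 CPM in the NAc (median 3.08), a log2 fold change of -5.89 ± 0.31, and Dlk1 went the other way (3.69 ± 0.18), as did Ecel1 and Tshz1 (0.86 ± 0.10). The nociceptin precursor Pnoc was higher in the BLA (-1.77 ± 0.42), though its values overlapped between the regions. Claustrum, endopiriform and deep cortex genes split into 7 and 8 of 15, with Ntng2 at -3.01 ± 0.14 and Tle4 at 1.88 ± 0.06; the kappa opioid receptor Oprk1 and the thyroid hormone binding protein gene Crym were NAc-high members (1.78 ± 0.14 and 1.82 ± 0.08). Of 16 interneuron genes, 8 were higher in the BLA and 4 in the NAc (median -0.66). Vip measured 9.77 to 19.8 CPM in the BLA (median 16.8) and 0.20 to 4.83 CPM in the NAc (median 1.32), a log2 fold change of -3.64 ± 0.35, Cort differed by -3.51 ± 0.42 and Htr3a by -2.82 ± 0.24. The genes that GABAergic cells share went the other way: the GABA-making enzymes Gad2 and Gad1 stood at 1.78 ± 0.08 and 0.69 ± 0.07, and the vesicular GABA transporter Slc32a1 at 1.59 ± 0.11; Gad1, outside the naming rule, was added after its values were seen. Npy was not called (-0.56 ± 0.37) unless mice 122, 149 and 159 were left out (-0.44); NAc library 149 held 1.38 CPM against 9.54 to 23.4 in the other 8 NAc libraries.

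Oligodendrocyte genes were higher in the NAc in 14 of 14 cases, 13 at least 2-fold, with a median of 1.43. Their summed level ran from 1685 to 3005 CPM in the BLA and from 3499 to 7840.0 CPM in the NAc. The myelin genes Mog and Mag differed by 1.52 ± 0.08 and 1.51 ± 0.08, and Gjb1, a gap junction protein of oligodendrocytes, by 1.99 ± 0.20. The part of this difference in the other results was not tested. Oligodendrocyte precursor genes differed little: 3 of 9 were higher in the NAc and 1 in the BLA, none 2-fold, with Pdgfra at -0.36 ± 0.07 and Olig1 at 0.31 ± 0.07. Astrocyte genes were higher in the BLA in 7 of 15 cases and in the NAc in 1 (median -0.17), among them Gfap and the water channel gene Aqp4 (-0.67 ± 0.08). Gfap measured 40.4 to 86.8 CPM in the BLA (median 64.7) and 17.6 to 39.2 CPM in the NAc (median 24.8), a log2 fold change of -1.24 ± 0.16. Itih3 was the NAc-high member (1.06 ± 0.15). Microglial genes gave 1 call of 14, the small difference of Fcrls (-0.24 ± 0.09), which was not called without mouse 122, 138 or 157, and a median of 0.01. Of 15 endothelial and mural genes, 4 were higher in the NAc, near the share of all genes (26.2%), and none 2-fold. The pericyte gene Abcc9 differed by 0.52 ± 0.11 and Cldn5 was not called (-0.02 ± 0.11). Of 10 choroid plexus, ependyma and meninges genes, 4 were higher in the NAc and 2 in the BLA. Ttr stood at -4.45 ± 1.43, at -2.79 without mouse 127, -5.30 without mouse 149 and -5.82 without mouse 159, and was not called without mouse 128 or 138; the proteoglycan gene Dcn differed by -3.47 ± 0.34. Of 10 genes of neuroblasts and cell division, 5 were higher in the NAc, among them Top2a (1.40 ± 0.40) and Mki67 (1.59 ± 0.44), and 3 were higher in the BLA. Top2a and Mki67 overlapped between the regions. Mki67 stood at 3.59, 4.77 and 6.9 CPM in NAc libraries 127, 147 and 149, against 0.513 to 1.43 in the other NAc libraries and 0.28 to 1.4 in the BLA. Top2a stood at 4.55 and 8.54 CPM in NAc libraries 127 and 147 and at 0.156 to 1.92 CPM in every other library. Without mouse 147 the log2 fold changes were 1.31 and 1.04.

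**Figure D5:**
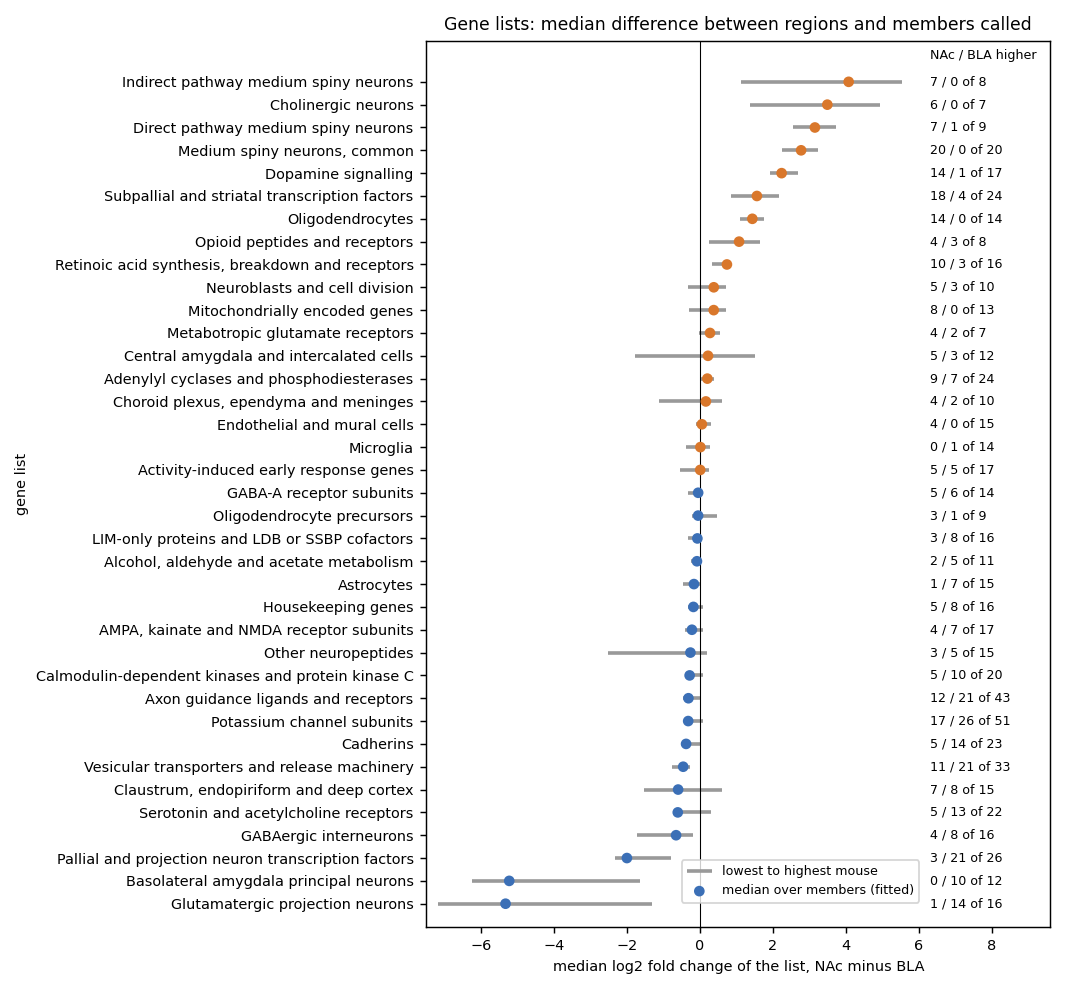
Median log2 fold change (NAc minus BLA) of the tested members of each of 37 gene lists (points), with the lowest and highest of the 9 mice (grey lines), beside the number of members called toward the NAc and toward the BLA. Medium spiny, cholinergic and dopamine lists lie to the right, from 2.24 to 4.07, and the glutamatergic and BLA principal neuron lists at the left, at -5.33 and -5.23, with long lines that end at -1.31 and -1.66.

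Opioid and other peptide genes included some with large differences in each direction. Of 8 opioid genes, 4 were higher in the NAc, all at least 2-fold, and 3 in the BLA. The mu opioid receptor Oprm1 measured 4.04 to 7.65 CPM in the BLA (median 5.92) and 15.1 to 47.6 CPM in the NAc (median 24.1), a log2 fold change of 2.13 ± 0.13, and the kappa receptor Oprk1 differed by 1.78 ± 0.14, in the same direction as its ligand precursor Pdyn. The nociceptin precursor gene Pnoc and the receptor gene Oprl1 went the other way (-1.77 ± 0.42 and -0.79 ± 0.12). Pnoc was low and overlapped between the regions, with 3.16 CPM in NAc library 127 against 2.86 CPM in BLA library 127. NAc library 149 held 0 reads of Pnoc. Of 15 other neuropeptide genes, 3 were higher in the NAc and 5 in the BLA, all at least 2-fold. Cartpt, the CART precursor, measured 0.637 to 1.96 CPM in the BLA (median 1.12) and 9.76 to 33.1 CPM in the NAc (median 21.2), a log2 fold change of 4.09 ± 0.25. Outside the naming rule, and taken after their values were seen, the cholecystokinin gene Cck measured 81.8 to 144 CPM in the BLA (median 109) and 1.06 to 32.4 CPM in the NAc (median 1.87), a log2 fold change of -5.36 ± 0.60. The gastrin-releasing peptide gene Grp, chosen in the same way, measured 3.96 to 13.9 CPM in the BLA (median 7.28) and 0 to 1.51 CPM in the NAc (median 0.0652), a log2 fold change of -5.92 ± 0.62.

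Glutamate receptor genes were mixed in direction. Of 17 ionotropic subunits, 4 were higher in the NAc and 7 in the BLA (3 and 4 at least 2-fold; median -0.22). The NMDA subunit Grin3a measured 126 to 203 CPM in the BLA (median 165) and 35.8 to 65.9 CPM in the NAc (median 43.9), a log2 fold change of -1.86 ± 0.10, and the AMPA subunit Gria3 differed by -1.01 ± 0.08. The kainate subunit Grik2 was higher in the NAc (1.11 ± 0.08), while Grin1, the obligatory NMDA subunit, was not called (-0.02 ± 0.08, 95% interval -0.18 to 0.15). Of 7 metabotropic receptors, 4 were higher in the NAc and 2 in the BLA. Grm2 and Grm8, which inhibit cyclic AMP, were far lower in the NAc: Grm2 measured 47.9 to 98.9 CPM in the BLA (median 72.7) and 1.48 to 11.5 CPM in the NAc (median 2.75), a log2 fold change of -4.45 ± 0.38. Grm8 measured 23.6 to 42.3 CPM in the BLA (median 30.9) and 2.23 to 13.2 CPM in the NAc (median 3.48), a log2 fold change of -3.02 ± 0.31. Grm4, of the same subgroup as Grm8, went the other way and measured 14.7 to 40.8 CPM in the BLA (median 21.7) and 85.1 to 159 CPM in the NAc (median 110.5), a log2 fold change of 2.27 ± 0.12. Grm3, the closest relative of Grm2, was also higher in the NAc (1.11 ± 0.10). Near relatives therefore stood on opposite sides.

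GABA-A receptor subunits showed the same kind of split, with 5 of 14 higher in the NAc and 6 in the BLA (3 and 2 at least 2-fold). The alpha subunit Gabra3 measured 188 to 244 CPM in the BLA (median 222) and 34.5 to 86.2 CPM in the NAc (median 47.4), a log2 fold change of -2.10 ± 0.12. Gabrd, the delta subunit of extrasynaptic receptors, measured 10.3 to 22 CPM in the BLA (median 16.6) and 58.9 to 96.4 CPM in the NAc (median 88.9), a log2 fold change of 2.41 ± 0.10, and Gabrg3 differed by 1.26 ± 0.08. Serotonin and acetylcholine receptor genes were higher in the BLA in 13 of 22 cases and in the NAc in 5 (6 and 3 at least 2-fold; median -0.61). Htr3a and Chrna7, ion channel receptors, were lower in the NAc (-2.82 ± 0.24 and -0.87 ± 0.07). The muscarinic receptor Chrm5 measured 0.333 to 2.35 CPM in the BLA (median 0.634) and 2.59 to 6.53 CPM in the NAc (median 5.15), a log2 fold change of 2.70 ± 0.22, and the inhibitory serotonin receptor Htr1d differed by 1.87 ± 0.19.

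Second messenger enzymes and kinases differed in both directions. Of 24 adenylyl cyclase and phosphodiesterase genes, 9 were higher in the NAc and 7 in the BLA (7 and 3 at least 2-fold; median 0.20). Against the NAc-high Adcy5, the cyclase Adcy6 was higher in the BLA (-1.36 ± 0.09). Among phosphodiesterases, Pde1c measured 9.01 to 14 CPM in the BLA (median 10.2) and 66.2 to 180.4 CPM in the NAc (median 107), a log2 fold change of 3.25 ± 0.13, Pde8b differed by 1.65 ± 0.08 and Pde1a went the other way (-1.0 ± 0.09), while Pde4d was not called (-0.00 ± 0.07). Of 20 calmodulin-dependent kinase and protein kinase C genes, 5 were higher in the NAc and 10 in the BLA (1 and 5 at least 2-fold; median -0.28). Camk2d measured 373 to 581 CPM in the BLA (median 472) and 42.9 to 135 CPM in the NAc (median 71.5), a log2 fold change of -2.56 ± 0.14, whereas Camk2b was higher in the NAc (0.78 ± 0.08). Prkcc, which encodes protein kinase C gamma, measured 724 to 932 CPM in the BLA (median 845) and 168 to 255 CPM in the NAc (median 221), a log2 fold change of -1.93 ± 0.08. Prkch, the eta form, measured 3.92 to 10.1 CPM in the BLA (median 4.91) and 64.8 to 123 CPM in the NAc (median 96.8), a log2 fold change of 3.95 ± 0.14, and Prkcb was not called (0.01 ± 0.11). Without mice 122, 127, 128, 149 and 159 the median of this list was -0.05.

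Of 51 potassium channel subunit genes, 26 were higher in the BLA and 17 in the NAc (15 and 8 at least 2-fold; median -0.32). Kcng1 and Kcnf1, silent subunits that pair with Kv2 channels, were lower in the NAc (-2.52 ± 0.10 and -1.37 ± 0.05). The leak channel gene Kcnk2 measured 25.2 to 46.6 CPM in the BLA (median 36.5) and 82.8 to 237 CPM in the NAc (median 120.3), a log2 fold change of 1.84 ± 0.09, and the auxiliary subunit Kcnab1 differed by 1.52 ± 0.08. Of 33 vesicular transporter and release genes, 21 were higher in the BLA and 11 in the NAc (11 and 8 at least 2-fold; median -0.46). The synapsin gene Syn2 measured 1226 to 1510.2 CPM in the BLA (median 1371) and 337 to 457 CPM in the NAc (median 414), a log2 fold change of -1.75 ± 0.07, and Sv2b was lower in the NAc too. The priming factor gene Unc13c and the calcium sensor genes Syt10 and Syt2, from the same list, were higher there. Unc13c measured 52.4 to 98.2 CPM in the BLA (median 69.5) and 279 to 576 CPM in the NAc (median 378). Its log2 fold change was 2.49 ± 0.09, while Syt10 differed by 2.62 ± 0.12 and Syt2 by 1.83 ± 0.08. Members of this list thus went in opposite directions, and Syn3 was not called (-0.11 ± 0.10).

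Of 23 cadherin genes, 14 were higher in the BLA and 5 in the NAc (6 and 1 at least 2-fold; median -0.38). Pcdh20 measured 38.7 to 72.3 CPM in the BLA (median 56) and 5.36 to 10.9 CPM in the NAc (median 7.14), a log2 fold change of -2.89 ± 0.10; Pcdh19 and Pcdh7 were lower in the NAc too (-1.36 ± 0.10 and -1.14 ± 0.07), and Pcdh11x was higher (1.24 ± 0.09). Of 43 axon guidance genes, 21 were higher in the BLA and 12 in the NAc (9 and 7 at least 2-fold, median -0.32). The count toward the NAc lies near the share of all genes (26.2%). The repellent ligand gene Slit1 measured 167 to 248 CPM in the BLA (median 201) and 33.5 to 83.8 CPM in the NAc (median 50.1), a log2 fold change of -2.03 ± 0.08, and the netrin receptor Unc5a differed by -1.44 ± 0.07. The netrin gene Ntn1 itself measured 9.37 to 15.7 CPM in the BLA (median 12.4) and 48.5 to 78.7 CPM in the NAc (median 57.8), a log2 fold change of 2.35 ± 0.10, opposite to that receptor. Among ephrin receptors, Epha5 was lower in the NAc and Ephb1 higher (-1.29 ± 0.06 and 1.81 ± 0.09), and Plxna2 was not called (0.00 ± 0.08).

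Retinoic acid genes were higher in the NAc in 10 of 16 cases and in the BLA in 3 (4 and 2 at least 2-fold; median 0.74). Rarb, given above, and Stra6, a membrane receptor for retinol-binding protein (2.23 ± 0.20), were NAc-high, while the receptor gene Rara was BLA-high (-1.22 ± 0.20) together with Cyp26b1. Alcohol, aldehyde and acetate metabolism differed little, with 2 of 11 higher in the NAc and 5 in the BLA and none 2-fold. Aldh2, which clears acetaldehyde, was higher in the NAc (0.61 ± 0.06) and Acss2, which activates acetate, lower (-0.68 ± 0.06). Of 17 early response genes, 5 were higher in each region (0 and 3 at least 2-fold, median 0.01). These counts lie near the shares of all genes, 26.2% toward the NAc and 26.4% toward the BLA. Egr1 was higher in the NAc (0.46 ± 0.11), Nr4a3 and Jun were lower (-1.63 ± 0.17 and -1.56 ± 0.08), and Arc was not called (0.01 ± 0.15). Mitochondrially encoded genes were higher in the NAc in 8 of 13 cases, none 2-fold, with mt-Nd4 at 0.42 ± 0.08. Housekeeping genes were not flat, with 5 of 16 higher in the NAc and 8 in the BLA, none 2-fold: Pgk1 differed by -0.59 ± 0.08 and Eef1a1 by 0.56 ± 0.07. Over all genes tested, 95% intervals lay inside 2-fold for 69.1% and inside 1.5-fold for 44.7%.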

How the data were processed

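PolyA RNA of NAc and BLA punches from 9 Lmo4gt/+ mice was analysed as 18 libraries, grouped by title. The deposited values are raw counts of reads per gene (51826 genes), not normalized. The submitters' processing notes name build mm9 and the tools HISAT2, DESeq2, HTSeq 0.11.1 and MultiQC 1.7; their settings, strand included, are not given. Reads that HTSeq assigned to no gene (mean 29.9%) stayed out of library sizes. Gene counts were 21255934 to 51021670 per library. Names and coordinates (1-based) came from GENCODE vM1 on NCBIM37, matched on the identifier, with 32708 genes named, holding 98.3% of counts; Gpr52, Lamp5, Tac3, Slc18a3, Lhx8 and Myrf had no match.

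Counts were tested with edgeR 4.0.16 in R 4.3.3: TMM, filterByExpr by region with a minimum count of 10 (17026 genes kept), robust glmQLFit with mouse and region as terms, quasi-likelihood tests, two-sided, with p-values adjusted by Benjamini-Hochberg (threshold 0.05). The test was first tried on simulated data. Fold changes are log2, NAc minus BLA, ± standard error; CPM use TMM factors, and ratios of single mice use a prior count of 2. Pairing by mouse comes from the animal numbers shared by titles, which make the 9 mutant mice of the design text. In the counts, 1 of 9 same-numbered pairs had deviations that correlated above 0.1 (median 0.0443, against -0.00318 between mice), and 3 of 9 correlated best with their own number. No 2 libraries were identical, and chi-square per degree of freedom was at least 9.52 between libraries of a region. NAc pairs that included library 149 lay at 63.2 to 142, and the other NAc pairs at 9.52 to 55.7. Nothing else says how the tissue samples were kept apart. With mouse as a term, p-values rest on the spread of the NAc to BLA difference over these 9 mice. Each mouse gave 1 library per region, so variation between animals and between punches cannot be told apart in that spread. Intervals and floors (3 counts) on reads cover counting error only.

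The members, the 37 gene lists (599 symbols) and the rule for named genes were chosen with earlier results of these data known. Named were Lmo4, the 4 region markers, the 12 genes per direction with the largest fold changes among those called with 1 sign in all mice and at least 5 CPM in the higher region (Gm, Rik, pseudogene and identifier-only names skipped), and per list the 4 called members of smallest p, the 2 against its majority and the member of largest p. Alternatives were RLE and upper-quartile scaling, no filter, no mouse block, DESeq2 1.42.0, limma 3.58.1 with voom, each mouse left out, mice 122, 149 and 159 left out and, chosen after seeing the data, mice 122, 127, 128, 149 and 159 left out. The wild-type libraries were not used here, and results of some genes that the rule names are not reported here.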

Additional observations from a re-analysis of the deposited data

Results flagged for a closer look

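Of 158 genes the text names under its naming rule, 23 had 1 mouse whose log2 ratio of NAc to BLA stood apart from the other 8. A mouse was counted as standing apart where its gap to the nearest other mouse, as a share of the whole range, passed Dixon's 95% value for 9 values. Chance flags about 1 in 20 genes, and genes measured in the same libraries are not independent.

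Mouse 122 stood apart for 9 genes, with a smaller difference, or one of the other sign, in each. Its ratio was -1.85 for Bdnf (others -6.59 to -5.00), -0.88 for Cort (-4.12 to -3.00), -0.44 for Neurod6 (-9.80 to -5.16), -4.19 for Nov (-7.12 to -6.06) and -1.02 for Nptx1 (-4.05 to -3.05). It was -1.89 for Rspo2 (-9.79 to -5.88), -3.22 for Slc30a3 (-10.24 to -6.90), -3.19 for Tbata (-6.93 to -5.42) and 0.43 for Rara (-2.10 to -1.03). NAc library 122 is also the one with high Slc17a7 and with conflicting genotype labels. What part either has in these ratios was not tested.

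Mouse 149 stood apart for 4 genes: its ratio was -5.19 for Htr3a (others -3.43 to -1.92), -4.10 for Npy (-1.19 to 0.36), -5.95 for Pnoc (-2.66 to 0.14) and 1.92 for Tac1 (3.64 to 4.67). NAc library 149 had the lowest depth of the 18 (21255934 gene counts) and the highest share of reads in no gene (38.1%). The part of depth in these ratios was not tested.

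Mouse 127 stood apart for Ttr (-13.03, others -5.35 to -1.33), with 519 CPM in its BLA library, and for Gria3 (-1.52, others -1.12 to -0.71) and Prkcc (-2.47, others -2.03 to -1.60). Mouse 157 gave 3.20 for Gabrd (others 2.11 to 2.58) and 0.97 for Lmo1 (others -0.28 to 0.28). Mouse 147 gave 1.84 for Lmo2 (others 1.22 to 1.51) and 4.30 for Top2a (others -0.58 to 1.61). Mouse 159 gave 0.24 for Fcrls (others -0.50 to -0.14), 1.63 for Ntn1 (others 2.22 to 2.67) and -2.09 for Pcdh19 (others -1.46 to -0.85).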

How the results depend on the processing

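Over 17 alternatives no count of called genes moved by 1.5 times or more, and none of the calls shared with the reported fit changed sign. Against 8966 genes called and 2562 at least 2-fold, DESeq2 called 9955 and 3480, limma voom 9241 and 2540, RLE scaling 8969 and 2563, and no filter on low counts 9019 and 3188. Upper-quartile scaling called 9029, 4807 toward the NAc and 4222 toward the BLA. Leaving out 1 mouse gave 8148 (without mouse 150) to 9379 genes (without mouse 149) and 2443 to 2730 at 2-fold; without mice 122, 149 and 159 there were 9364, and without mice 122, 127, 128, 149 and 159 there were 8393. Without the mouse block, which treats the libraries as unpaired, 9095 genes were called and 2556 were at least 2-fold; the calls of Dlx1, Kcnj8 and Nr4a1 ended without it. Of 207 named genes 175 were called, and 166 kept call and sign under every alternative. Of the list medians, 3 moved by more than the SD over mice, all without the 5 mice: cholinergic neurons 4.68, dopamine signalling 2.52, and calmodulin-dependent kinases with protein kinase C -0.05. The causes were not tested. Depth limits statements on genes such as Slc9a4 and Lhx1, with 1 or 0 reads in a region.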

Other observations

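Further gene families were picked out by symbol after their values were seen, so their counts are descriptions. Some members, such as Rgs9 and Scn4b, are also in the lists above. The counts are read against all genes tested, of which 26.2% were higher in the NAc and 26.4% in the BLA. At least 2-fold, these shares were 7.41% and 7.64%. Each value is a log2 fold change, NAc minus BLA, in the 9 mutant mice. The 3 POU3F transcription factor genes tested were all higher in the NAc: Pou3f4 measured 2.22 to 6.32 CPM in the BLA (median 3.02) and 38.6 to 58 CPM in the NAc (median 46.3), a log2 fold change of 3.81 ± 0.17, Pou3f1 stood at 3.58 ± 0.11 and Pou3f3 at 1.15 ± 0.06. The 3 ZFHX factor genes were higher in the NAc too, with Zfhx4 at 2.64 ± 0.20, Zfhx3 at 1.92 ± 0.15 and Zfhx2 at 0.71 ± 0.12. The families of synapse organisers picked here had more members higher in the BLA than in the NAc. Of 6 C1q-like and cerebellin genes, 4 were higher in the BLA and none in the NAc, and C1ql3 measured 389 to 561 CPM in the BLA (median 502) and 4.73 to 39.2 CPM in the NAc (median 6.66), a log2 fold change of -6.01 ± 0.38. Of 6 neurexin and neuroligin genes, 5 were higher in the BLA, among them Nrxn2 (-0.98 ± 0.07), while Nrxn3 was higher in the NAc (0.85 ± 0.08). None of these 6 differed by at least 2-fold. Of 16 regulators of G protein signalling, 7 were higher in the NAc and 3 in the BLA. Rgs9, the striatal member, stood at 4.68 ± 0.37 and Rgs8 at 1.55 ± 0.07.

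Among other families, Wnt ligand, adrenergic receptor and sodium channel genes had members with large differences in both directions. Of 11 Wnt ligand genes, 3 were higher in the NAc, near the share of all genes (26.2%), and 5 in the BLA. Wnt2 stood at 4.42 ± 0.33 and Wnt9a at -5.24 ± 0.66. Of 9 adrenergic receptor genes, 3 were higher in the NAc, such as Adra2b (3.75 ± 0.58), and 5 in the BLA, such as Adra1d (-4.19 ± 0.53). Of 13 sodium channel subunit genes, 5 were higher in the NAc and 7 in the BLA; Scn9a stood at 2.30 ± 0.10 and Scn7a at -4.70 ± 0.36. Of 6 TRPC channel genes, 3 were higher in each region, and Trpc4 (-1.98 ± 0.17) and Trpc5 (-1.97 ± 0.11) were at least 2-fold higher in the BLA. Of 4 HCN pacemaker channel genes, 3 were higher in the BLA, led by Hcn4 (-1.50 ± 0.12). Cytosolic ribosomal protein genes were higher in the NAc in 51 of 76 cases, none of them 2-fold and none called toward the BLA, with a median of 0.35. Reads of near-identical ribosomal pseudogenes make single members of that family uncertain.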
